A study of Mus musculus with 100 samples.

Results

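The 10 genes described here, Pou5f1, Nanog, Klf2, Klf4, Esrrb, Zfp42, Tfcp2l1, Prdm14, Dppa3 and Tbx3, are a named list of factors of the naive pluripotent state, and all 10 were found among the 23109 gene-level entries of 37 mouse RNA tables. They fall into 18 groups: 3 groups of a single library, 11 of 2 libraries and 4 of 3. Gene-level depth ran from 18.9 to 59.9 M reads. Levels are CPM (reads of a gene scaled to the library size), and the floor used here, 3 reads in a library, is worth 0.0535 to 0.181 CPM on this scale. All cultured cells carried the genotype Mll3-/-. The control cells were in addition Mll4flox/flox (flox cells), with 1 or 2 libraries a group. The cells compared with them were Mll4KI/KI (KI cells), always 1 library from each of 2 clones named 27 and 48. The labels do not spell out what the KI allele changes. Mll3 and Mll4 encode histone methyltransferases that act at enhancers.

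The embryonic stem cells (ESC, day 0) were grown in 2i+LIF, a medium with inhibitors of MEK and GSK3 and the cytokine LIF that holds cells in the naive state. Embryoid bodies (EB), aggregates that differentiate without LIF, were sampled at days 4 and 10. A neural protocol followed the EB protocol with 5 µM retinoic acid added after day 4 and was sampled at days 8 and 16. Trophectoderm-type cells (TE, day 6) came from ESC with a lentiviral CDX2 transgene induced by doxycycline. Extraembryonic endoderm-type cells (ExEn, day 5) were made with activin A at 10 ng/mL and retinoic acid at 0.1 µM. Embryos, taken whole at E8.5 or E9.5, were all Mll3flox/KI with Sox2-Cre, a Cre active in the epiblast, and either Mll4flox/KI (KI embryos) or Mll4flox/+ (control embryos), with 3 embryos a group. ESC, EB and neural RNA is labelled poly(A) RNA and TE, ExEn and embryo RNA total RNA, although the protocol describes poly(A) purification for all; TE and ExEn levels are set beside ESC as a description only, since this difference and the culture cannot be told apart. Nothing states that replicate libraries came from separate cultures, so p-values in the cultures measure the spread between libraries or clones, which may be technical. In bulk samples, fewer cells expressing a gene and less of its RNA per cell cannot be told apart.

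Naive pluripotency is held by a network in which Pou5f1 (OCT4) and Nanog act with Esrrb, Tfcp2l1, Klf2, Klf4, Tbx3 and Prdm14 to keep self-renewal on and lineage genes off. LIF acts through STAT3, which induces Klf4 and Tfcp2l1, and GSK3 inhibition relieves repression of Esrrb. On exit from the naive state these factors are silenced at different times: Pou5f1 is kept in the formative and primed epiblast, while Klf4, Esrrb and Tfcp2l1 are lost early. Several members also have roles outside pluripotency, such as Klf2 in endothelium, Klf4 in skin and gut epithelium, Tfcp2l1 in kidney ducts, Esrrb in trophoblast stem cells and Tbx3 in limb and heart.

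Promoter windows from RefSeq (build GRCm38.p6) were found for 7 of the 10 genes, and not for Prdm14, Dppa3 and Tbx3. They were searched on both strands for the octamer letters TTTGCAT (the POU site that OCT4 recognises), the SOX letters ACAATG, the nuclear receptor half-site letters AGGTCA and the KLF letters GGGNGTGG. The 3 windows shown are examples chosen after the matches were seen, Nanog and Zfp42 for the octamer and Tfcp2l1 for its pair of KLF matches. Those of Pou5f1 hold matches too and are not shown. Each gives 250 bases before the start site, 5′ to 3′ along the gene, with matches in capitals. The Nanog window is at chr6:122707239-122707488 (+ strand, 1 of 2 start sites), that of Zfp42 at chr8:43307010-43307259 (- strand) and that of Tfcp2l1 at chr1:118627695-118627944 (+ strand).
Nanog: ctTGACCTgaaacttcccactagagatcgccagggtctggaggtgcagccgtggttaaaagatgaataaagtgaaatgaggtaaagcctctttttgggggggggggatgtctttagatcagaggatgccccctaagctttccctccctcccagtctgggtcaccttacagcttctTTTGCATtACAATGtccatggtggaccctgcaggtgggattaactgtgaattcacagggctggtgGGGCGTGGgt
Zfp42: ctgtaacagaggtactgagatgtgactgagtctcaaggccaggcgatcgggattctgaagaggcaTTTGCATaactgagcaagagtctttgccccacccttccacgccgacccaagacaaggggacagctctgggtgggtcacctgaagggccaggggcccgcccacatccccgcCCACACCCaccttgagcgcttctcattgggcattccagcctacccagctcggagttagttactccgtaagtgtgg
Tfcp2l1: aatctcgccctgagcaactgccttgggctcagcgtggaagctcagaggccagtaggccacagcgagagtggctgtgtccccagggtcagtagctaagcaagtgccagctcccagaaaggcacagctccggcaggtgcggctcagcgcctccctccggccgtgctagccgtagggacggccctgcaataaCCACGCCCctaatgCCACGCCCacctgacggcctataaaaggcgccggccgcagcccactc
Among the 7 genes, the octamer letters were found for Nanog and Zfp42, against 4.12% of all 32851 windows of this length. The SOX letters stood beside the octamer in Nanog and were also found in a window of Pou5f1 (10.7% of all windows hold them), and the half-site letters occurred in windows of Nanog and Pou5f1 (14% of all windows). The KLF letters, present in 15.9% of all windows, were found for Pou5f1, Nanog, Zfp42 and Tfcp2l1. Matches are descriptions of these letters in these windows only.

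In naive ESC the 10 genes spanned a wide range of levels. By length-corrected level (the deposited RPKM), Pou5f1 was highest, at 792 in the flox library and 752 ± 14.5 (SD, n = 2) in the KI clones. Zfp42 (REX1, a zinc finger protein used as a naive marker) followed at 336 and 253 ± 19.2, and the homeodomain factor Nanog at 226 and 205 ± 17.3. The next 3 genes stood in a different order in the 2 genotypes. In the flox library Klf2 was at 176 RPKM, the orphan nuclear receptor Esrrb at 136 and Klf4 at 112. In the KI clones Klf4 was at 111 to 127 RPKM, Esrrb at 106 to 115 and Klf2 at 96.4 to 108, so that the range of Esrrb overlapped both others while those of Klf4 and Klf2 did not overlap. Tfcp2l1 came next, at 70.4 RPKM in flox and 87.6 in both KI clones, and the T-box factor Tbx3 stood at 26.9 and 16.8 ± 1.09. Prdm14 (a repressor of lineage genes) and Dppa3 (Stella, a maternal and germline factor) were lowest, at 11.2 and 8.39 RPKM in flox. In the KI clones their order was the reverse, at 2.95 ± 0.24 and 9.53 ± 0.74.

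In ESC, Prdm14 and Klf2 were lower in KI than in flox cells. Prdm14 was at 45.8 CPM in the flox library and at 10.9 and 12.3 in KI clones 27 and 48, a log2 fold change of -2.01 ± 0.38 (SE, adjusted p = 0.021). Klf2 was at 503 CPM in flox and at 266 and 300 in KI (log2 fold change -0.87 ± 0.11, adjusted p = 0.0050). Both KI clones lay below the lone flox library for these 2 genes. Shares of all genes called, given here and below, belong to the main fit of each comparison. They do not apply to counts from its alternatives, such as a fit on fewer libraries. These were the only members called (adjusted p below 0.05 in edgeR's quasi-likelihood test over all genes), so 2 of 10 were called lower where 6.01% of all genes were, and 0 higher where 5.89% were. Without either KI library Prdm14 was not called (adjusted p 0.135 and 0.178) and 1 member was left. Fitted on the 3 ESC libraries alone, with the 2 KI clones giving the whole spread, 8 members were called.

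Pou5f1 was at 1687 CPM in flox ESC and at 1522 and 1571 in KI. Tfcp2l1 was higher in both KI clones (1233 and 1237 CPM) than in flox (1027), and Tbx3 lower (123 and 136 against 215), without reaching the threshold (adjusted p = 0.64 and 0.28). Of the other pluripotency genes, 4 of 10 network factors and 3 of 10 ESC markers were called lower in KI ESC and 0 higher. Of the genes called, the largest falls were in Nr0b1 (Dax1, -1.40 ± 0.18) and Utf1 (-0.97 ± 0.19) among network factors and in Tcl1 (-1.62 ± 0.16) and Dppa5a (-0.98 ± 0.20) among markers. Sox2, the partner of OCT4, was at 712 CPM in flox and at 332 and 371.5 in KI (-1.05 ± 0.44), and was not called (adjusted p = 0.21). Of 6 formative epiblast markers 2 were called higher in KI ESC and 0 lower, Otx2 (3.48 ± 0.56, adjusted p = 0.017) and the DNA methyltransferase Dnmt3a (1.63 ± 0.18, adjusted p = 0.0030). The rest of that list was not called. Fgf5 (-1.68 ± 0.65), Lef1 (-1.02 ± 0.64) and Pou3f1 (-0.28 ± 0.20) were lower in KI and Dnmt3b (0.22 ± 0.14) higher. The whole list summed to 226 CPM in flox and 396.5 to 406 in KI. Extraembryonic endoderm markers summed to 330 CPM (Afp, Apoa1 and Ttr at 0) and 189 to 240.5, with 1 of 11 called lower, and neuronal markers to 441 and 319 to 349 (Dcx at 0 in KI), with 1 of 6 lower. Trophoblast markers summed to 122.5 and 159 to 162, with 0 of 9 called (Elf5 at 0 in both), endothelial markers to 92.8 (Emcn at 0) and 111 to 122, with 1 of 8 lower, and germ cell markers to 271 and 251 to 254 (Nanos2 at 0 in KI), with 3 of 9 higher and 2 lower. Their part in the members' difference was not tested.

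By day 4 of EB culture the members had fallen at unequal speed, and the share of the ESC level left was larger in KI than in flox cells for 8 of 10, all but Dppa3 and Tbx3. In flox cells 9 of 10 were called lower than in ESC (22.3% of all genes were), the exception being Tbx3. In KI cells 9 of 10 were called lower too (22.4% of all genes), the exception being Pou5f1 at -0.62 ± 0.21 (adjusted p = 0.058, and 0.039 with the clone as a block). The call of Tbx3 in KI (-1.25 ± 0.33, adjusted p = 0.028) was lost without any 1 of the 4 KI libraries (adjusted p 0.085 to 0.113) and without the low-count filter (0.066). The median member was left with 4.91% of its ESC level in flox and 13.0% in KI cells. The ESC level enters each share, and its mean was lower in KI for all members but Klf4, Tfcp2l1 and Dppa3. For Prdm14, shares of 1.67% in flox and 8.77% in KI came with ESC levels of 45.8 and 11.6 CPM.

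Klf4, Prdm14 and Tfcp2l1 were left with the least in flox cells, 1.60% to 1.70% of the ESC level. Klf4, a target of LIF signalling, fell from 537 CPM to 8.59 in flox and to 18.3 and 16.9 CPM in KI (3.20% of its ESC level). Tfcp2l1 fell to 17.5 CPM in flox and to 59.6 and 48.7 CPM in KI (4.38%). Esrrb fell to 19.9 CPM in flox (2.22%) and to 56.8 and 55.0 in KI (7.91%). For Klf4, Tfcp2l1 and Esrrb both KI clones stood above the flox library at day 4.

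Nanog kept 9.37% of its ESC level in flox (45.2 CPM) and 26.5% in KI (107 and 118 CPM). Pou5f1 kept 32.8% in flox (552.5 CPM) and 64.9% in KI (972 and 1036 CPM). Zfp42 was left at 42.5 CPM in flox and 70.9 and 72.4 in KI, and Klf2 at 27 and at 43.5 and 44.7. Each of these 4 genes was again higher in both KI clones.

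Tbx3 and Dppa3 went the other way. Tbx3 was at 110 CPM in flox and at 55.9 and 52.8 in KI at day 4, and Dppa3 at 3.87 CPM in flox and 2.14 and 1.90 in KI. Neither difference was called (adjusted p = 0.20 and 0.13). Prdm14 was down to 0.763 CPM (15 reads) in flox and 1.21 and 0.834 CPM in KI.

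**Figure D1:**
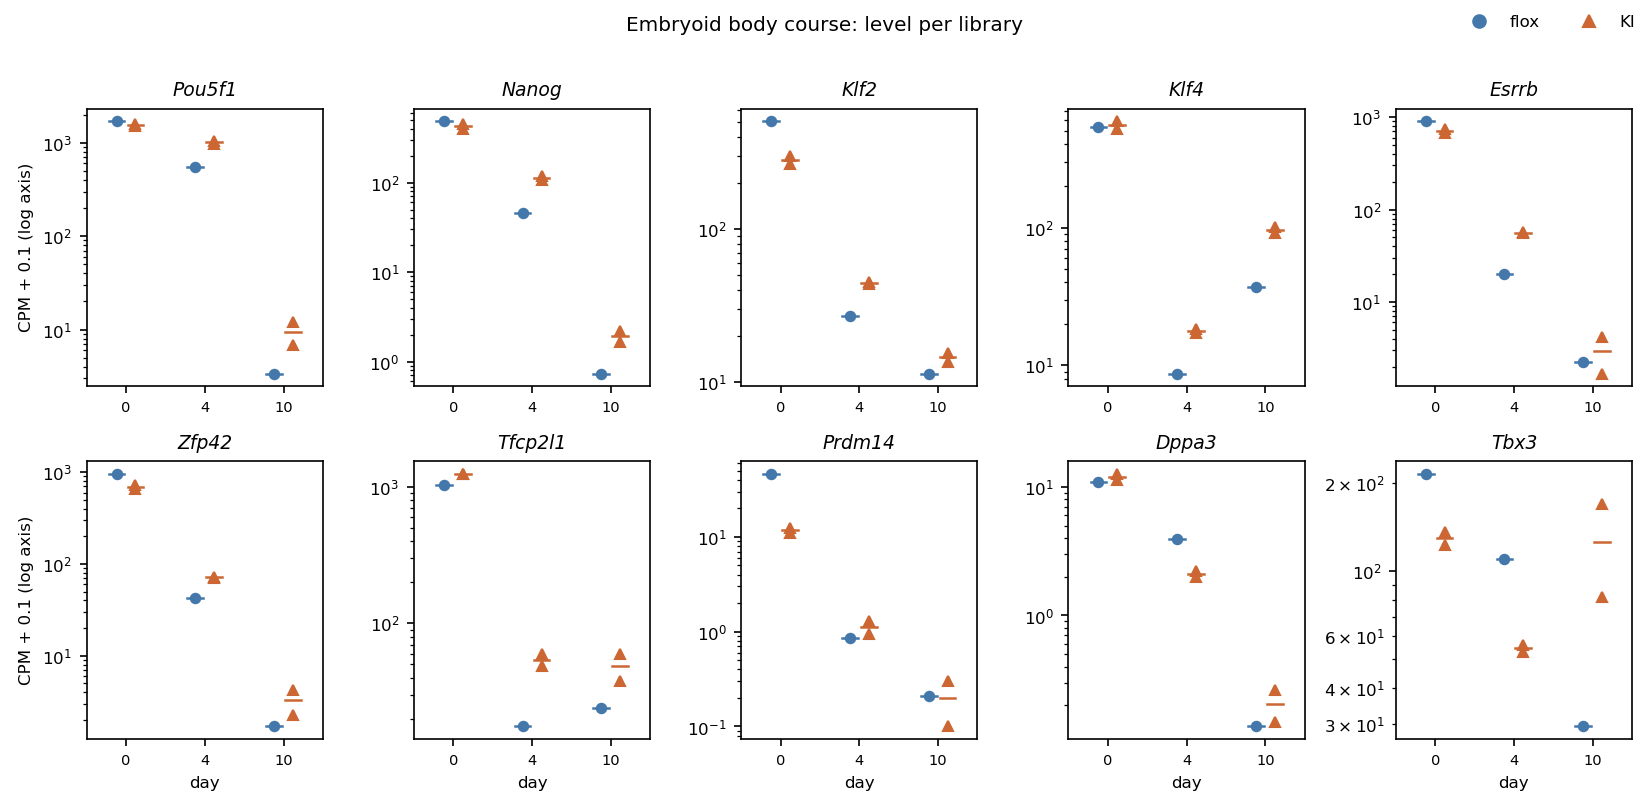
Level of each gene by day of the embryoid body course (CPM + 0.1, log axis); each point is 1 library, circles are flox and triangles KI clones, and the short line is the mean. At day 4 the KI points lie above the flox point for Pou5f1, Nanog, Klf2, Klf4, Esrrb, Zfp42, Tfcp2l1 and Prdm14 and below it for Dppa3 and Tbx3; Klf4 rises again by day 10.

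In the direct comparison at EB day 4, 4 of 10 members were called higher in KI and 0 lower, where 2.66% of all genes were called higher and 5.05% lower. These were Tfcp2l1 (1.62 ± 0.30, adjusted p = 0.033), Nanog (1.31 ± 0.15, adjusted p = 0.0035), Klf4 (1.03 ± 0.14, adjusted p = 0.0075) and Klf2 (0.70 ± 0.13, adjusted p = 0.020). Esrrb differed by 1.48 ± 0.38 (adjusted p = 0.079) and Pou5f1 by 0.86 ± 0.27 (adjusted p = 0.13). The median over the 10 members was 0.80, and 0.0 over all genes tested. The lone flox library is assumed to vary like the KI pairs. Without KI clone 27 at day 4, 1 member was called, and without clone 48, 0. Fitted on the 3 day-4 libraries alone, 9 members were called, and with the clone as a block Esrrb was added (adjusted p = 0.048).

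The change from ESC to day 4 differed between the genotypes for 3 members, all less of a fall in KI (3.09% of all genes were called in this direction and 3.77% in the other). Klf2 differed by 1.57 ± 0.17 on the log2 scale (adjusted p = 0.0047), Nanog by 1.53 ± 0.20 (adjusted p = 0.0081) and Klf4 by 1.03 ± 0.18 (adjusted p = 0.021). For Klf2 the lower starting level of KI ESC enters this value. Without clone 27 or 48 at day 4, 1 (Klf2) and 0 members were called, Klf4 was also lost without clone 27 of ESC (adjusted p = 0.089), DESeq2 called 5, the compared groups alone gave 9 and the clone block added Tfcp2l1 (adjusted p = 0.038).

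Other pluripotency genes called at EB day 4 were higher in KI. Of 10 ESC markers 5 were higher in KI, with Tcl1 (1.79 ± 0.31) and Tdh, threonine dehydrogenase (0.97 ± 0.18), the largest, and of 10 network factors 2 were, Utf1 (1.09 ± 0.20) and Zscan10 (0.58 ± 0.11). Summed markers of other cells stood apart between the genotypes as well. Endothelial markers summed to 227.5 CPM in flox and 36.4 to 41.7 in KI, although 1 of 8 was called lower and 1 higher. The formative epiblast markers, 2 of which were already called higher in KI ESC, summed to 1361 CPM in flox and 2316 to 2401 in KI, with 3 of 6 called higher. The trophoblast markers summed to 2251 CPM in flox (Elf5 at 0) and 847 to 909 in KI, with 4 of 9 tested called lower, and 4 of 11 extraembryonic endoderm markers were lower (sums of 1014 and 430 to 527, Afp at 0 in flox). Germ cell markers were higher for 3 of 9 tested (60.5 and 95.2 to 99.4, Nanos2 at 0 in both) and neuronal markers lower for 1 of 6 (123 and 80.1 to 87.8). Their part in the members' difference was not tested.

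By EB day 10, Pou5f1, Nanog, Esrrb and Zfp42 were under 1% of the ESC level in both genotypes, while Klf4 and, in KI cells, Tbx3 had risen again. From day 4 to day 10, KI cells showed 7 of 10 members called lower (35.1% of all genes) and 2 higher (35.4%). Klf4 rose from 18.3 and 16.9 CPM to 101 and 91.3 (2.43 ± 0.11, adjusted p = 2.3e-06), and was at 37.1 CPM in flox. Tbx3 rose from 55.9 and 52.8 CPM to 170 and 81.7 (1.19 ± 0.33, adjusted p = 0.022), a call lost without either day 4 library (adjusted p 0.060 and 0.071) and without the low-count filter (0.053). Tfcp2l1 did not pass the test between the days (60.0 and 37.6 CPM at day 10).

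Pou5f1 fell from 972 and 1036 CPM to 11.9 and 6.73 in KI (-6.78 ± 0.28, adjusted p = 8.2e-06) and stood at 3.26 CPM in flox. Nanog stood at 2.09 and 1.57 CPM in KI and 0.630 (17 reads) in flox. Prdm14 and Dppa3 were at 4 reads or fewer in all 3 libraries. Against flox, Tbx3 (2.08 ± 0.45, adjusted p = 0.047), Nanog (1.49 ± 0.28, adjusted p = 0.019) and Klf4 (1.36 ± 0.13, adjusted p = 0.0019) were called higher in KI at day 10, 3 of 10 where 5.49% of all genes were, and 0 lower where 4.96% were. The Tbx3 call was lost without the low-count filter (adjusted p = 0.098). Fitted on the 3 day-10 libraries alone 0 members were called, against 5 with DESeq2, 5 with the clone block, which added Pou5f1 (adjusted p = 0.045) and Tfcp2l1 (0.030), and 5 and 8 without clone 27 and 48.

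The change from ESC to day 10 was called different for 4 members, all higher in KI (4.77% of all genes higher and 4.36% lower): Tbx3 by 2.85 ± 0.58, Nanog by 1.72 ± 0.31, Klf4 by 1.36 ± 0.17 and Klf2 by 1.202 ± 0.18. The call of Tbx3 was lost without KI clone 27 or 48 of ESC (adjusted p 0.145 and 0.129) or the low-count filter (0.094), and that of Nanog without clone 27 of ESC (0.065). With the compared groups alone 2 were called, and without clone 27 or 48 of EB day 10, 6 and 8. Extraembryonic endoderm markers summed to 3467 CPM in flox and 5803 to 6477 in KI at day 10, with 5 of 11 called higher, and germ cell markers to 67.2 (Nanos2 at 0) and 163 to 216 (Dazl at 0), with 1 of 9 higher. Trophoblast markers were higher for 2 of 9 (sums of 752 and 1141 to 1765 CPM) and endothelial markers lower for 1 of 8 (611 and 419 to 515). Formative markers were lower for 2 of 6 (323 and 312 to 315), as were neuronal markers for 2 of 6, whose sum was higher (40.7 and 46.0 to 58.6). Their part was not tested.

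Averaged over the 3 days, the KI effect was called for 0 of 10 members (0.398% of all genes were called higher and 0.332% lower). By edgeR 2 had an unadjusted p below 0.05, Klf4 and Tfcp2l1, which DESeq2 called. Without the flox ESC library 3 were called, these and Nanog.

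**Figure D2:**
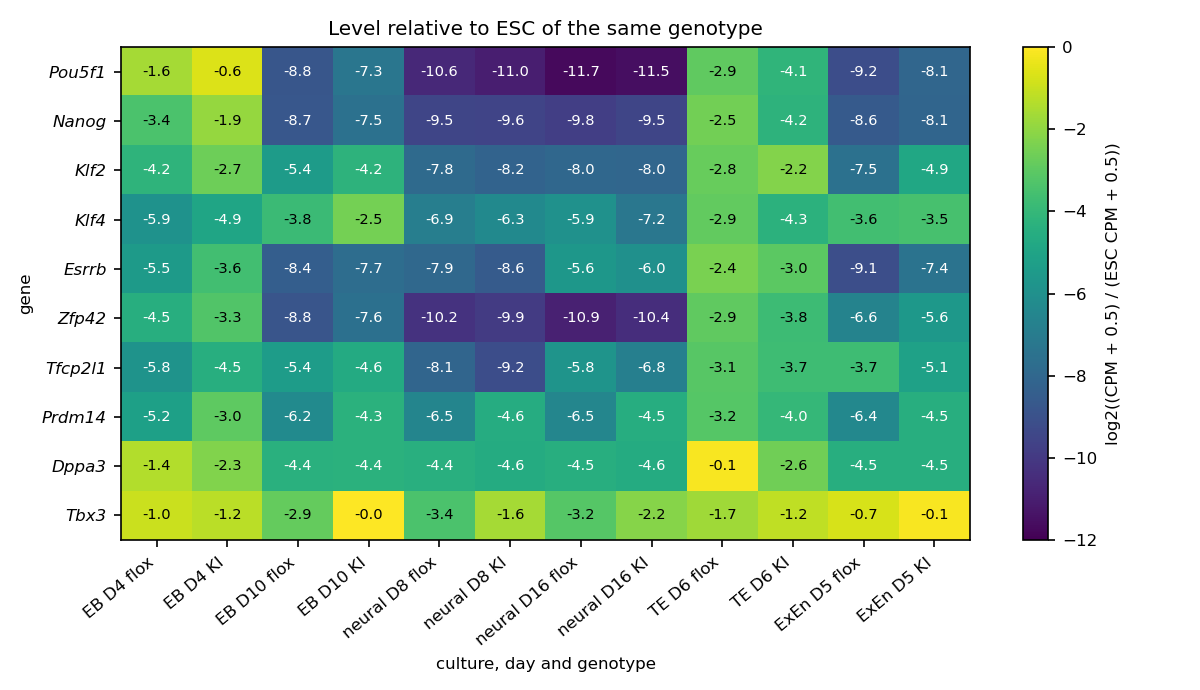
Log2 level of each gene in each culture relative to ESC of the same genotype, with 0.5 CPM added; genes run down and groups across, and darker cells are lower. Pou5f1 and Zfp42 are darkest in the neural cultures, down to -11.7 and -10.9, no gene in TE is below -4.27 and Tbx3 is at -0.72 and -0.14 in ExEn.

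In the neural protocol each member was below 10% of its ESC level at day 8, except Tbx3 in KI cells. At that day 10 of 10 members were called lower than in ESC in flox (30.8% of all genes) and in KI cells (32.5%). With 0.5 CPM added, the median member was at -7.89 in flox and -8.36 in KI on the log2 scale relative to ESC. The median over 12631 genes expressed in ESC was -0.15 in both. Over the 17367 genes tested, the median log2 fold change was 0.26 in flox and 0.17 in KI. Members near 0 reads enter the members' medians at about the value added. Neural and ESC libraries carry different styles of title, so a batch and the day cannot be told apart. Pou5f1 stood at 0.621 and 0.509 CPM in flox and 0.371 and 0.158 in KI, 2986-fold and 5851-fold below ESC. Zfp42 was at 8 to 17 reads in every day 8 library. Prdm14 had 0 reads in both flox libraries, at least 771.5-fold below ESC at the floor of 3 reads per library, and 0 and 1 reads in KI.

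Tbx3 kept most, at 20.2 and 19.1 CPM in flox (9.13% of ESC) and 43.0 and 40.9 in KI (32.4%). The groups did not overlap (1.08 ± 0.11, adjusted p = 1.7e-05). Klf4 was at 3.94 and 4.36 CPM in flox and 6.20 and 6.58 in KI (0.61 ± 0.20, adjusted p = 0.047), again with no overlap, although this call was lost when any 1 of the 4 libraries was left out.

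Klf2, Esrrb and Tfcp2l1 were lower in KI neural cells at day 8. At EB day 4 Klf2 and Tfcp2l1 had been called higher in KI and Esrrb had not passed the test, and the effects at these points of the protocols were not compared by a test. Klf2 was at 1.65 and 1.75 CPM in flox and 0.589 and 0.394 in KI (-1.81 ± 0.27, adjusted p = 0.00041). Esrrb was at 3.21 and 3.09 CPM in flox and 1.57 and 1.18 in KI (-1.21 ± 0.24, adjusted p = 0.0030), and Tfcp2l1 at 3.36 and 3.09 and at 1.57 and 1.73 (-0.97 ± 0.18, adjusted p = 0.0019). None of these 3 pairs of groups overlapped. The share of all genes whose groups do not overlap was not counted, in this culture or elsewhere. Lack of overlap is therefore a description only, and weak with so few libraries a group. The Esrrb call was lost without KI clone 48 (adjusted p = 0.067). In all, 2 members were called higher (6.30% of all genes) and 3 lower (13.2%) of the 7 that passed the low-count filter, which Nanog, Prdm14 and Dppa3 did not. All 8 endothelial markers were called lower in KI at day 8, and their sum was 124 to 126 CPM in flox and 26.3 to 31.6 in KI. Extraembryonic endoderm markers were lower for 8 of 10 tested (sums of 600 to 601 and 396 CPM) and neuronal markers for 5 of 6 (1413 to 1422 and 945 to 1094). Formative markers were higher for 1 and lower for 2 of 5 (sums of 262 to 267 and 281 to 310) and germ cell markers higher for 1 and lower for 1 of 10 (56.7 to 56.8 and 74.8 to 84.0). Their part in the members' differences was not tested.

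Against ESC, the change to neural day 8 was called different between genotypes for Tbx3 (1.85 ± 0.38, adjusted p = 0.011), Tfcp2l1 (-1.198 ± 0.32, adjusted p = 0.028) and Klf2 (-0.94 ± 0.25, adjusted p = 0.026), 1 higher and 2 lower (5.65% and 7.33% of all genes). The call of Tfcp2l1 was lost without any 1 of the KI libraries of ESC and day 8 or the flox libraries of day 8 (adjusted p 0.059 to 0.087). That of Klf2 was lost without KI clone 48 of ESC or of day 8 or either flox library (0.062 to 0.174), and Tbx3 was called in each case. The compared groups alone gave 5.

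From day 8 to day 16 Esrrb and Tfcp2l1 rose in both genotypes while Pou5f1 and Zfp42 went to or near 0 reads. Esrrb rose to 16.5 and 18.5 CPM in flox (2.42 ± 0.20) and 13.0 and 8.35 in KI (2.88 ± 0.22). Tfcp2l1 rose to 20.4 and 16.3 CPM in flox (2.45 ± 0.16) and 11.4 and 9.71 in KI (2.60 ± 0.17). Zfp42 had 0 reads in all 4 libraries of day 16, at least 14710-fold below ESC in flox and 11340-fold in KI, and Pou5f1 had 0 to 2. In flox cells 3 of 7 members rose (38.4% of all genes) and 2 fell (38.7%), and in KI cells 2 rose (40.7%) and 4 fell (39.2%).

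At day 16, 4 of 7 members were called lower in KI (19.7% of all genes) and 0 higher (27.1%). Klf4 was at 8.25 and 8.32 CPM in flox and 3.92 and 2.33 in KI (-1.44 ± 0.20, adjusted p = 0.00012), so that its order at day 8 had turned. Klf2 was at 1.28 and 1.62 CPM in flox and 0.654 and 0.490 in KI (-1.36 ± 0.27, adjusted p = 0.0014). Tfcp2l1 differed by -0.83 ± 0.14 (adjusted p = 0.00057) and Esrrb by -0.74 ± 0.18 (adjusted p = 0.0058), and no pair of groups overlapped among these 4 genes. The Esrrb call was lost without flox library 2 (adjusted p = 0.057). Neuronal markers were called higher in KI for 6 of 6, with sums of 3475 to 3745 CPM in flox and 6029 to 6815 in KI. Trophoblast markers were lower for 5 of 8 tested (16.98 to 21.2 and 4.90 to 4.98 CPM, Elf5 and Hand1 at 0 in KI) and extraembryonic endoderm markers for 6 of 10, with 1 higher (827 to 843.5 and 296 to 396). Endothelial markers summed to 44.15 to 47.0 CPM in flox and 3.27 to 7.19 in KI, with 2 of 8 called higher and 1 lower. Formative markers were higher for 1 and lower for 2 of 5 (385 to 392 and 457.5 to 498.5, Otx2 at 0 in both). Their part was not tested. The KI effect differed between the days for Klf4 (-2.05 ± 0.28, adjusted p = 0.00020) and Tbx3 (-0.87 ± 0.15, adjusted p = 0.00098), 2 lower and 0 higher (14.0% and 19.2% of all genes).

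In flox TE at day 6 the members other than Dppa3 and Tbx3 stood at 10.0% to 18.8% of the ESC level, Tbx3 at 30.5% and Dppa3 at 92.1%. In KI TE the median was 7.47%, against 13.7% in flox. The share left was smaller in KI for 8 members and larger for Klf2 (21.3% against 14.2%) and Tbx3 (44.4% against 30.5%). In TE 8 of 10 members were called lower in KI than in flox (24.2% of all genes) and 0 higher (26.7%), with a median of -1.32 beside 0.01 over all genes.

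Pou5f1 was at 221 CPM in both flox TE libraries and at 64.7 and 112 in KI (-1.33 ± 0.28, adjusted p = 0.015). Nanog was at 82.1 and 82.7 CPM in flox and 14.8 and 28.9 in KI (-1.92 ± 0.29, adjusted p = 0.0017). Esrrb was at 170 and 169 CPM in flox and 84.5 and 90.4 in KI (-0.96 ± 0.08, adjusted p = 2.8e-07). KI clone 27 was the lower clone for all 3.

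Zfp42 was at 127 and 124 CPM in flox and 46.0 and 55.8 in KI (-1.31 ± 0.10, adjusted p = 9.1e-08), and Klf4 at 75.1 and 67.4 and at 26.3 and 30.0 (-1.35 ± 0.10, adjusted p = 9.8e-08). Prdm14 and Dppa3 differed most among the members. Prdm14 was at 4.57 and 4.61 CPM in flox and 0.150 and 0.366 (4 and 10 reads) in KI (-4.13 ± 0.61, adjusted p = 5.5e-05), and Dppa3 at 9.43 and 10.5 and at 1.35 and 1.72 (-2.70 ± 0.34, adjusted p = 1.9e-05). Prdm14 was already lower in KI ESC. Tfcp2l1 differed by -0.32 ± 0.11 (adjusted p = 0.029), lost without KI clone 27 or either flox library, and Klf2 and Tbx3 were not called (-0.25 ± 0.12 and -0.20 ± 0.13), but were with the clone as a block (adjusted p = 0.027 and 0.021). The Pou5f1 call was lost when TE was fitted alone (adjusted p = 0.097).

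Of 10 ESC markers 9 were called lower in KI TE and 1 higher, with Tdh (-3.30 ± 0.30) and Tcl1 (-2.97 ± 0.37) the largest, and of 10 network factors 6 were lower and 2 higher, led by Sox2 (-2.998 ± 0.14) and Nr0b1 (-2.94 ± 0.24). The trophoblast markers went the other way: 8 of 10 were called higher and 1 lower in KI TE, and their sum was 3368 to 3447 CPM in flox and 5978 to 6334 in KI. Cdx2, the gene whose transgene drives this culture, was itself at 26.9 and 29.7 CPM in flox TE and 104 and 111 in KI (1.92 ± 0.12, adjusted p = 1.4e-08), with no overlap. Germ cell markers summed to 181 to 182 CPM in flox and 307 to 379 in KI (Nanos2 at 0 in KI), with 3 of 9 tested called higher, among them Tfap2c, which is also on the trophoblast list, and 1 lower. Neuronal markers were lower for 3 of 5 tested (sums of 100 to 105 and 22.8 to 23.7), formative markers for 2 of 6, with 1 higher (447 to 448 and 339 to 344). Endothelial markers were lower for 2 and higher for 2 of 7 (17.03 to 19.4 and 8.63 to 14.25, Emcn at 0 in both), and extraembryonic endoderm markers lower for 3 and higher for 5 of 11 (1129 to 1154 and 1067 to 1104, Afp at 0 in flox and Ttr in KI). Their part in the members' difference, that of Cdx2 included, was not tested.

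**Figure D3:**
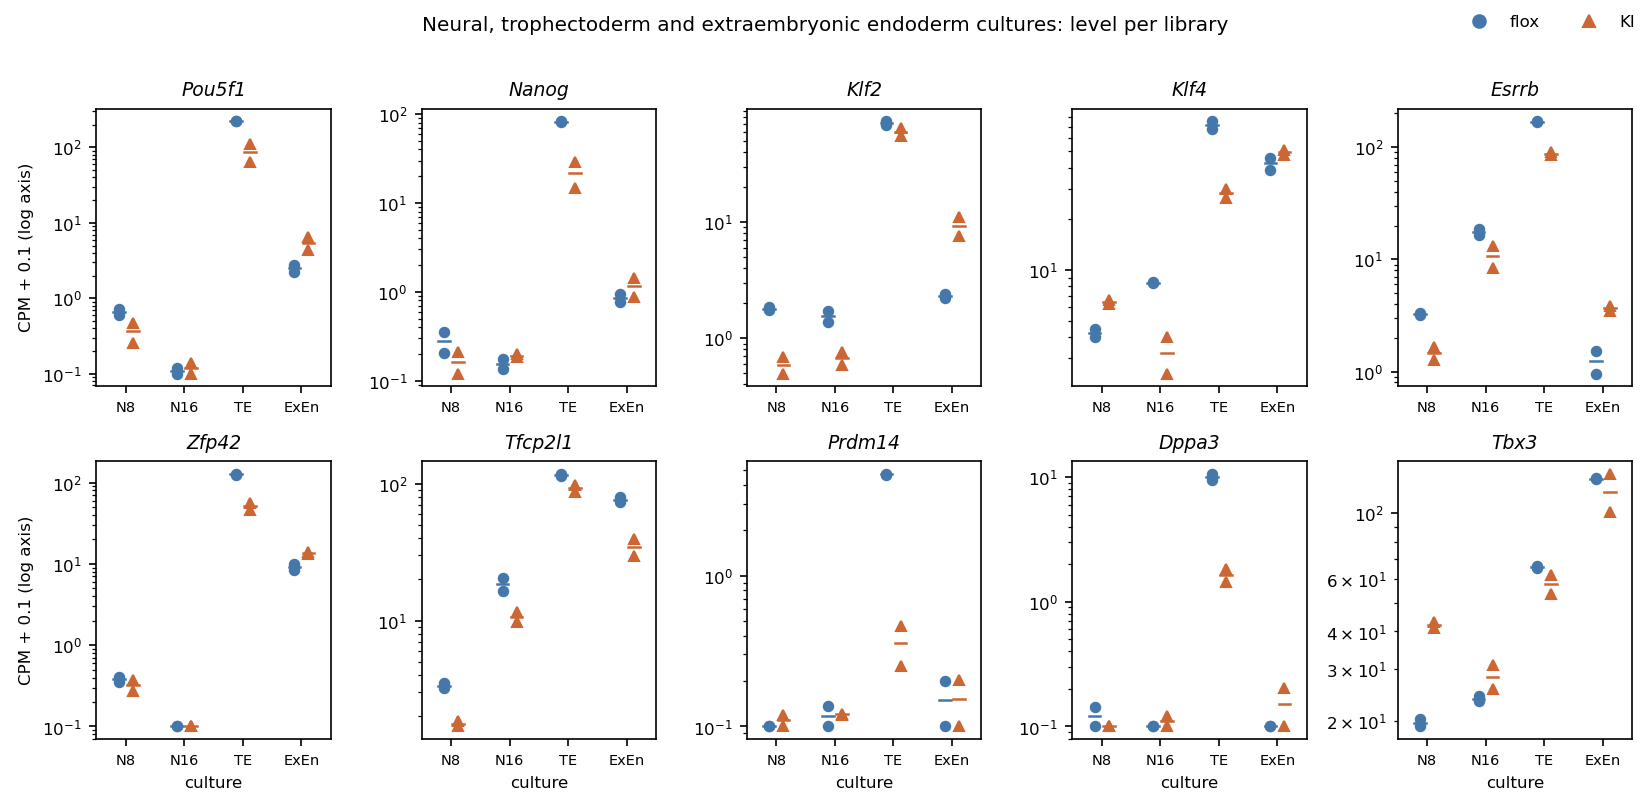
Level of each gene in neural cultures at days 8 and 16 (N8, N16), TE at day 6 and ExEn at day 5 (CPM + 0.1, log axis); each point is 1 library, circles are flox, triangles KI clones, and the short line is the mean. In TE the KI points lie below the flox points for all 10 genes, with Pou5f1 at 221 CPM in flox and 64.7 and 112 in KI, and in ExEn Klf2 and Esrrb lie above. The share of all genes so separated was not counted.

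In ExEn cells Pou5f1, Nanog and Esrrb were nearly off in both genotypes, while Klf4, Tfcp2l1 and Tbx3 stayed expressed. Klf2 was at 2.13 and 2.30 CPM in flox and 7.56 and 10.9 in KI (2.04 ± 0.21, adjusted p = 5.6e-06). Esrrb was at 1.42 and 0.857 CPM in flox and 3.37 and 3.77 in KI (1.63 ± 0.21, adjusted p = 3.1e-05), and Zfp42 at 9.94 and 8.25 and at 13.9 and 13.3 (0.57 ± 0.13, adjusted p = 0.0035, lost without flox library 2 at 0.056). Tfcp2l1 was lower in KI, at 79.9 and 73.6 CPM in flox and 39.4 and 29.5 in KI (-1.16 ± 0.12, adjusted p = 2.0e-05). No pair of groups overlapped for these 4 genes. Thus 3 of 10 members were called higher (18.1% of all genes) and 1 lower (17.4%).

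Pou5f1 was at 2.13 and 2.68 CPM in flox ExEn and 4.24 and 6.43 in KI, not called (adjusted p = 0.21), but called by DESeq2 (adjusted p = 0.018) and with the clone block (adjusted p = 3.7e-05). Tbx3 stood at 131 and 130 CPM in flox and 100 and 135 in KI, groups that overlapped (called lower without clone 48, adjusted p = 0.0031), and Klf4 at 45.8 and 39.0 and at 47.8 and 50.6 (adjusted p = 0.14). Prdm14 and Dppa3 had 2 reads or fewer in every ExEn library. All 11 extraembryonic endoderm markers were called lower in KI ExEn and their sum was 7148 to 7264 CPM in flox and 4049 to 4068 in KI (Apoa1 and Ttr at 0 in KI). Trophoblast markers were higher for 6 and lower for 2 of 10 (sums of 3348 to 3364 and 4362 to 5232, Elf5 at 0 in KI), and formative markers higher for 3 and lower for 3 of 6 (354 and 241 to 260.5). Neuronal markers were higher for 3 and lower for 2 of 5 (145 and 65.5 to 75.2) and endothelial markers higher for 1 of 7 (13.1 to 13.4 and 10.2 to 10.9, Emcn at 0 in both). Their part was not tested.

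The KI effect differed between TE and ExEn for 6 members, 5 with a lower value in TE (17% of all genes) and 1 with a higher value (18.3%). Esrrb differed by -2.59 ± 0.22, Pou5f1 by -2.47 ± 0.64, Klf2 by -2.30 ± 0.24, Zfp42 by -1.88 ± 0.16 and Klf4 by -1.55 ± 0.15, and Tfcp2l1 by 0.84 ± 0.16. The call of Pou5f1 was the weakest (adjusted p = 0.039) and was lost without any 1 of the ExEn libraries, without either flox TE library and without the low-count filter (adjusted p 0.062 to 0.196). With the clone as a block the difference for Nanog was called too (-2.48, adjusted p = 0.0030).

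The LIF pathway that induces Klf4 and Tfcp2l1 was followed through 4 genes, the receptor subunits Lifr and Il6st (gp130), Stat3 and its feedback inhibitor Socs3. In KI ESC Il6st was called lower (-0.39 ± 0.10, adjusted p = 0.045), and at EB days 4 and 10 edgeR called 0 of 4, with 3 and 0 at an unadjusted p below 0.05. At neural day 8 Lifr (-0.75 ± 0.11) and Stat3 (-0.37 ± 0.09) were lower in KI, and at day 16 Socs3 (-1.45 ± 0.14), Il6st (-0.84 ± 0.08) and Stat3 (-0.64 ± 0.08). In KI TE Stat3 (0.50 ± 0.07) and Socs3 (0.42 ± 0.08) were higher. In KI ExEn Socs3 (0.56 ± 0.09), Il6st (0.46 ± 0.06) and Stat3 (0.32 ± 0.07) were higher and Lifr lower (-0.84 ± 0.19). In embryos 0 of 4 were called at either stage, with 1 and 0 at an unadjusted p below 0.05. Their part in the members' differences was not tested.

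In whole embryos Tbx3 was higher in KI at E8.5 and Klf2 lower in KI at E9.5, while Nanog, Zfp42, Prdm14 and Dppa3 did not pass the low-count filter. Tbx3 was at 41.2, 47.6 and 45.7 CPM in control and 60.5, 71.7 and 81.8 in KI embryos at E8.5, with no overlap (0.66 ± 0.11, adjusted p = 0.0023). At E9.5 it was at 49.9, 50.4 and 45.6 in control and 68.4, 60.9 and 49.8 in KI, and the groups overlapped (adjusted p = 0.057). Klf2 was at 10.8, 11.7 and 10.7 CPM in control E9.5 embryos and 4.58, 6.39 and 4.29 in KI, with no overlap (-1.11 ± 0.26, adjusted p = 0.0036).

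Of 6 members that passed the filter, 1 was called higher at E8.5 (3.63% of all genes, 1.83% lower) and 1 lower at E9.5 (14.9%, and 14.6% higher). At E8.5 Klf2 was at 4.97, 4.56 and 5.62 CPM in control and 1.74, 2.26 and 4.61 in KI, and the groups overlapped (adjusted p = 0.096). This main fit did not pair embryos by title number. Klf2 was called with the title number as a block (-0.91, adjusted p = 0.022), with DESeq2 (0.049) and without KI embryo 3 (0.0061). Endothelial markers were called higher in KI for 5 of 8 at E8.5 (sums of 274 to 330 CPM in control and 377 to 533 in KI) and for 3 of 8 at E9.5 (294 to 325 and 372 to 417), and neuronal markers lower for 6 of 6 at E9.5 (173 to 255 and 43.4 to 47.2). Trophoblast markers were higher for 2 and lower for 1 of 10 at E8.5 (sums of 631.5 to 761 and 950.5 to 1125) and higher for 5 of 10 at E9.5 (194.5 to 406 and 587 to 631). Germ cell markers were higher for 2 of 6 at E8.5 (81.8 to 83.7 and 110.5 to 116) and 3 of 6 at E9.5 (57.3 to 60.2 and 102 to 106), and extraembryonic endoderm markers for 3 of 11 at E9.5 (812 to 912.5 and 983 to 1192). Their part was not tested. Esrrb and Tfcp2l1 were at low levels at E9.5, and their groups did not overlap there. Esrrb was at 0.605, 0.139 and 0.339 CPM in control and 0.789, 0.804 and 1.07 in KI (1.30 ± 0.50, adjusted p = 0.058), and Tfcp2l1 at 0.945, 0.627 and 0.849 and at 2.53, 1.17 and 1.16 (1.01 ± 0.45, adjusted p = 0.099). Esrrb was called with DESeq2 (0.047), with summed transcripts (0.020) and without control embryo 1 (0.026). Tbx3 was called at E9.5 with the compared groups alone (0.049), with the block (0.0088) and without KI embryo 3 (0.0097). Klf4 stood at 1.58 to 3.93 CPM in control and 2.90 to 5.96 in KI embryos at E8.5 and at 4.71 to 7.18 and 5.57 to 7.80 at E9.5, and the groups overlapped at both stages. Pou5f1 was at 2.34 to 3.86 CPM in control and 2.13 to 5.75 in KI at E8.5, and at 14 reads or fewer in every embryo of E9.5.

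Between the stages, Klf2 and Klf4 were higher at E9.5 than at E8.5 in control embryos and Pou5f1, Tfcp2l1 and Esrrb lower. There 2 of 6 members were called higher (12.2% of all genes) and 3 lower (12.1%): Klf2 (1.12 ± 0.26, adjusted p = 0.0042), Klf4 (1.03 ± 0.31, adjusted p = 0.021), Pou5f1 (-3.36 ± 0.51, adjusted p = 8.4e-05), Tfcp2l1 (-2.07 ± 0.44, adjusted p = 0.0020) and Esrrb (-1.79 ± 0.50, adjusted p = 0.012). The call of Klf4 was lost without control embryo 2 of E8.5 or 1 or 2 of E9.5, and that of Esrrb without control embryo 2 of E9.5 (0.071). In KI embryos 1 was called higher (15.9% of all genes), Klf2 (0.82 ± 0.28, adjusted p = 0.029), and 1 lower (16.6%), Pou5f1 (-4.17 ± 0.54, adjusted p = 1.6e-05). The call of Klf2 in KI embryos was lost without embryo 1 or 2 of E8.5, without embryo 2 of E9.5 and with the compared groups alone. With the title number as a block 4 members were called in KI embryos, although no title number spans both stages. The KI effect was not called different between the stages for any of the 6 in edgeR or DESeq2, with 0 higher (3.39% of all genes by edgeR) and 0 lower (3.24%). By unadjusted p below 0.05 there were 2, Tfcp2l1 (1.65 ± 0.61) and Tbx3 (-0.36 ± 0.16), which the block called (adjusted p = 0.046 and 0.048).

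**Figure D4:**
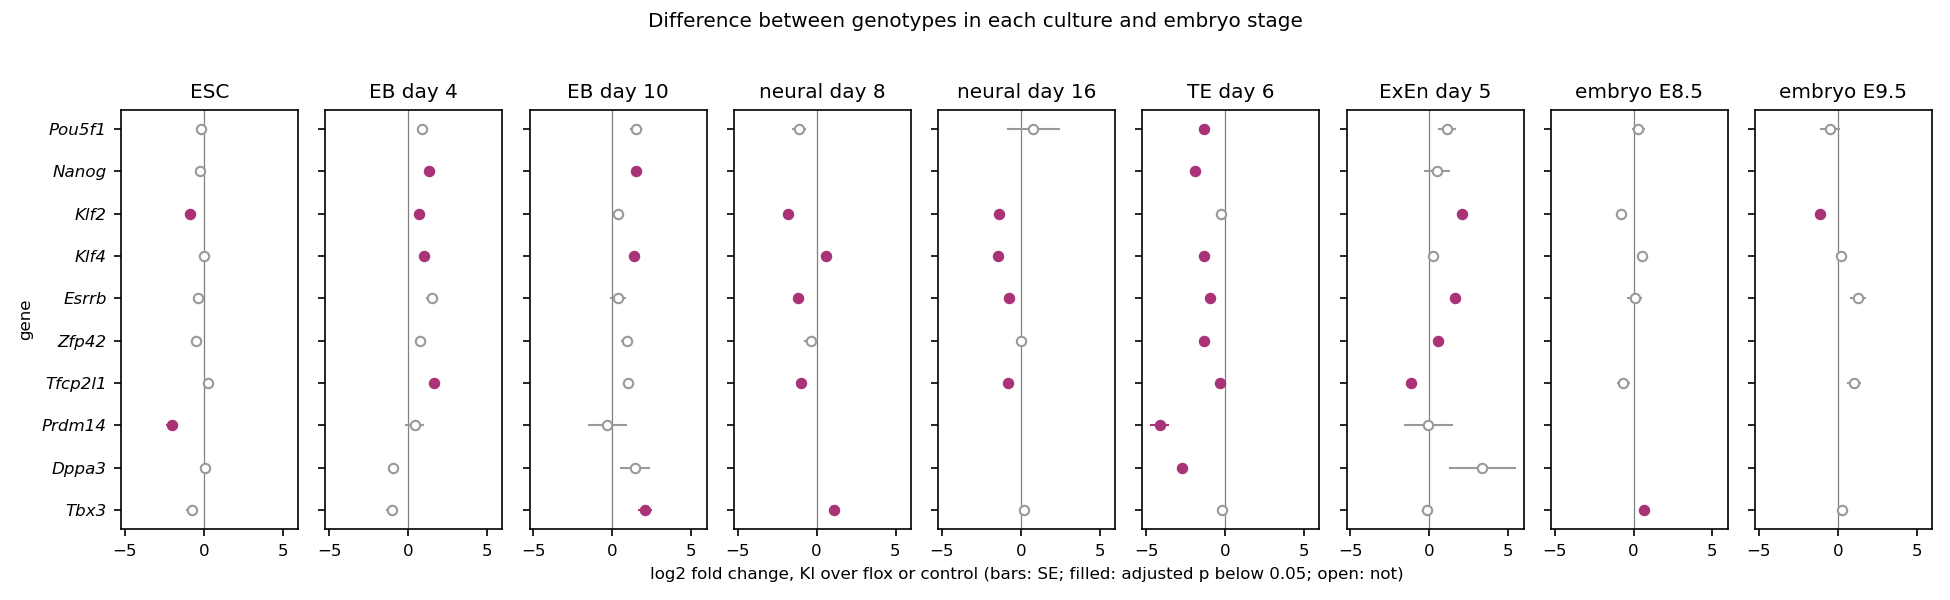
Log2 fold change of KI over flox (or over control embryos) for each gene in each culture and stage, with SE bars; filled points have an adjusted p below 0.05 and a gene with no point did not pass the low-count filter. The members lie mostly right of zero at EB days 4 and 10 and left of it in TE, where 8 of 10 are filled.

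Across the 18 group means, the gene most like each member in log2(CPM + 1) was named as a description, among 16136 candidates. Pou5f1 was closest to Tdgf1 (Pearson r = 0.993), Nanog to Gdf3 (0.991), Prdm14 to Tcl1 (0.991) and Zfp42 to Dppa5a (0.989), all known as genes of pluripotent cells. The others were closest to these genes: Dppa3 to 4930461G14Rik (0.970), Esrrb to Trim13 (0.946), Klf4 to Arhgap30 (0.944), Tfcp2l1 to Zbtb7a (0.943), Klf2 to Pycard (0.938) and Tbx3 to Myo5c (0.914). The 18 means share clones and, for the cultures, the same starting cells.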

How the data were processed

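The members and gene lists were chosen with earlier results of these data known. RNA tables of 37 libraries were used; the other 63 samples of the series were not analysed here. Per the file headers, each transcript in the deposited tables has its read count and its RPKM. Per the submitters' processing notes, STAR and bcl2fastq were used with build mm9; the counting tool is not given in the sources used here. Of 29082 transcripts, 28436 matched a symbol and 646 did not. The transcript with most reads stood for each gene. Pou5f1, Esrrb and Tbx3 have 2 listed transcripts each. Pou5f1, Nanog, Dppa3 and Zfp42 have pseudogenes or related copies, so their counts may be shared and are uncertain.

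Counts were tested in R 4.3.3 with edgeR 4.0.16 (TMM, filterByExpr, robust quasi-likelihood fit, Benjamini-Hochberg over all genes, call at adjusted p below 0.05), in separate fits for the EB course, neural, TE with ExEn, and embryo libraries, and 1 fit of all poly(A) libraries for ESC against neural cells. Sample groups came from the labels. CPM values are TMM-scaled over all 37 libraries. The fits were tested on simulated data. In the fit averaged over EB days, genes were filtered by the day and genotype groups, a choice made after a first run with the additive design; that first filter is among the alternatives. Named genes were all members, the most similar gene of each, and up to 2 called genes a list with the largest change. Sox2 and the uncalled formative markers in ESC, Cdx2 in TE and the 4 LIF pathway genes were named after their values were seen. Lists of cell type markers are given where the groups' sums did not overlap. Network factors and ESC markers are given for ESC, EB day 4 and TE only. Sums of ESC markers also did not overlap at EB day 10, neural days 8 and 16, in ExEn and at E9.5. Those of network factors did not at EB day 10, neural day 8, in ExEn and at E8.5. DESeq2 1.42.0, RLE scaling, no filter, summed transcripts, the compared groups alone, a 2-fold minimum, a replicate block and leaving out libraries were the alternatives.

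KI clone numbers name the same cell clones, and same-clone deviations correlated at 0.145 to 0.386. In block fits flox library numbers 1 and 2 were a column of their own. Embryos of E8.5 that share a title number correlated at 0.299, 0.349 and 0.152. This pairing, like the shared clones, entered only the block fits. The main fits, which gave the p-values printed first, left both out. Chi-square per degree of freedom between libraries of a group was lowest for the neural day 8 flox pair (1.5, others 2.76 to 54.8); both were kept. The 3-read floor covers counting error only.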

Additional observations from a re-analysis of the deposited data

Results flagged for a closer look

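These differences between genotypes in a change, or between cultures or days in the KI effect, passed a test of the difference itself in edgeR (adjusted p below 0.05); all are on the log2 scale. The change from ESC to EB day 4 differed (KI minus flox) by 1.57 for Klf2, 1.53 for Nanog and 1.03 for Klf4. To EB day 10 the difference was 2.85 for Tbx3, 1.72 for Nanog, 1.36 for Klf4 and 1.202 for Klf2. To neural day 8 it was 1.85 for Tbx3, -1.198 for Tfcp2l1 and -0.94 for Klf2, so that the value for Klf2 had the opposite sign to that at EB days 4 and 10; the protocols were not compared by a test of their own.

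The KI effect at neural day 16 minus that at day 8 was -2.05 for Klf4 and -0.87 for Tbx3. The KI effect in TE minus that in ExEn was -2.59 for Esrrb, -2.47 for Pou5f1, -2.30 for Klf2, -1.88 for Zfp42, -1.55 for Klf4 and 0.84 for Tfcp2l1.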

How the results depend on the processing

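Values here are counts of members called unless said otherwise. The share of all genes called in these settings is not given, so the counts cannot be read as enrichment. With only the compared groups in the fit, 8 were called in ESC, 9 at EB day 4, 0 at EB day 10, 9 and 2 for the change from ESC to EB days 4 and 10, 5 for that to neural day 8 and 2 at E9.5. DESeq2 called 2 for the EB average, 5 at EB day 10, 5 for the change to EB day 4 and 2 at each embryo stage. A 2-fold minimum left 1 in ESC, 3 and 2 at neural days 8 and 16, 1 for their difference, 0 at E8.5 and 1 for KI embryos between stages, and summed transcripts gave 2 at E9.5. The replicate block gave 5 at EB day 10, 2 at E8.5, 2 at E9.5, 2 for the difference between the stages (0 without it, with 2 unadjusted p below 0.05) and 4 for KI embryos between stages; E9.5 title numbers did not pair the embryos (correlations of -0.00567 to 0.177). Its other changed calls stand beside their results.

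Leaving out 1 library gave 0 to 3 for the EB average, 1 in ESC, 0 to 1 at EB day 4, 5 to 8 at EB day 10, 0 to 3 and 2 to 8 for the changes to EB days 4 and 10, 3 to 4 at neural day 8, 1 to 2 for the change to it, 1 to 2 at each of E8.5 and E9.5, 3 to 5 between stages in control embryos (3 without E9.5 control embryo 2) and 1 to 3 in KI embryos (1 without E8.5 or E9.5 KI embryo 2). E9.5 gave 2 without KI embryo 3 or control embryo 1. Single-library calls rest on a spread borrowed from the other groups.

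The median log2 level relative to ESC moved with a pseudocount of 0.1 CPM to -2.97 (EB day 4, KI), -7.04 and -5.87 (EB day 10, flox and KI), -8.20 and -8.90 (neural day 8), -7.55 (neural day 16, flox) and -7.27 and -5.96 (ExEn). RLE scaling gave -7.91 (neural day 8, flox), -6.18 (neural day 16, flox) and -4.96 (ExEn, KI), and summed transcripts -7.85, -5.95 and -6.26 (neural days 8 and 16 and ExEn, flox). Leaving out 1 library gave -4.81 to -4.42 for EB day 10 KI and -5.043 to -5.001 for ExEn KI. No member's direction reversed past a threshold in these alternatives. The first filter of the EB average, replaced after a first run and kept as an alternative, also called 0. Members at or near 3 reads cannot be ordered at this depth; the causes of the changes were not tested.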
